A study of Mus musculus with 6 samples.

Results

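The 9 genes described here are those of red blood cells: the 7 globin genes Hba-x, Hba-a1, Hba-a2, Hbb-y, Hbb-bh1, Hbb-bs and Hbb-bt, the haem synthesis gene Alas2 and the transferrin receptor gene Tfrc. They were taken by name from a table of 54532 Ensembl gene IDs, with symbols from the GENCODE M21 annotation, and all 9 were found and were expressed highly enough to be tested. RNA came from heart ventricles of mouse embryos at stage E12.5, in 3 samples in which Kdm1a, encoding the histone demethylase LSD1, was conditionally deleted (labelled LSD1-CKO or LSD1-KO), and 3 control samples (labelled CTL). The labels give no strain, no Cre driver, no genotype of the controls beyond that name, and no word on whether a sample is 1 embryo or a pool. They do not say whether blood cells carry the deletion, nor whether blood was washed out of the ventricles. The labels do not say that the samples are separate animals, so p-values speak only of the variation among these 6, which may in part be technical.

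Haemoglobin is built from alpha-type and beta-type chains, each encoded by a cluster in which embryonic genes lie beside definitive ones. In mice, primitive red cells formed in the yolk sac circulate first and carry the embryonic chains of Hba-x, Hbb-y and Hbb-bh1 together with adult alpha chains. Definitive red cells made in the fetal liver carry the chains of Hba-a1, Hba-a2, Hbb-bs and Hbb-bt, and they join the circulation at about this stage. Within primitive cells, RNA of Hbb-bh1 gives way to that of Hbb-y as the cells mature. LSD1 is known in red cell precursors as a partner of the repressor GFI1B, and inhibitors of LSD1 raise fetal globin in human erythroid cells.

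The windows that follow span the 250 bases before and 50 bases after each annotated start (RefSeq, GRCm38.p6). They are shown for the globin genes highest in each class and for Alas2, whose levels over the libraries are compared further on. Capitals mark CACCC (a KLF1-type box), CCAAT, the TATA-type run ATATAA, and the GATA runs AGATAA or AGATAG as well as TGATAA or TGATAG, each searched on both strands. No 2 motifs overlap in the windows printed.
Hbb-y, chr7:103853158-103853457, minus strand: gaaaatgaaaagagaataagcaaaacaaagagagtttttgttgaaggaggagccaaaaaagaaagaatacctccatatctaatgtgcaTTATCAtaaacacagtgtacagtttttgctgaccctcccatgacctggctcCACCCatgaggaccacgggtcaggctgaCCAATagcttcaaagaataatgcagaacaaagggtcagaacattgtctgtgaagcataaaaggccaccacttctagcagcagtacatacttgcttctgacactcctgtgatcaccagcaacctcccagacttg
Hba-x, chr11:32276350-32276649, plus strand: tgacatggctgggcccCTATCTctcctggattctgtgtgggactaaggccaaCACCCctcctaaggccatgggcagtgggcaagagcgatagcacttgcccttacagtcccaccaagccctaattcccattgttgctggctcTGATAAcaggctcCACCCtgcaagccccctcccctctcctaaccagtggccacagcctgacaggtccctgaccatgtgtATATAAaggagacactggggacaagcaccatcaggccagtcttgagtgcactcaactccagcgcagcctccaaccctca
Hbb-bs, chr7:103827879-103828178, minus strand: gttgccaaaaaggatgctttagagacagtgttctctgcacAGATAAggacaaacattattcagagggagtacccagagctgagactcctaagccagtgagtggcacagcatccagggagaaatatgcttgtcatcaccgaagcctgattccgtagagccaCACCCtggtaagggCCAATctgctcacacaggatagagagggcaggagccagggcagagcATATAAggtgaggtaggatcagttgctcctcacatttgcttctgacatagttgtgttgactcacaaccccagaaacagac
Hba-a1, chr11:32283422-32283721, plus strand: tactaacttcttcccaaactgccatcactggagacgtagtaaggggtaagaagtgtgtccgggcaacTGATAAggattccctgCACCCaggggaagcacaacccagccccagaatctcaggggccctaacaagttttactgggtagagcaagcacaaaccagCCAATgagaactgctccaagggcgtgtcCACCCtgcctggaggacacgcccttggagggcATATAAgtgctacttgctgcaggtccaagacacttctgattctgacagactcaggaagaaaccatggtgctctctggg
Alas2, chrX:150547167-150547466, plus strand: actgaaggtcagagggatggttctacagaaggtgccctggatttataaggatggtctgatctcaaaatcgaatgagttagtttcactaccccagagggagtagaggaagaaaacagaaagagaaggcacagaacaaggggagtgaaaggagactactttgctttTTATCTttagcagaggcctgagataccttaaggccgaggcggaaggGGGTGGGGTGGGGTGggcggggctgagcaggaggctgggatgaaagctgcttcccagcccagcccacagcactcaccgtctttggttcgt

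Of the 9 genes, 8 had a promoter in the RefSeq table. CACCC was found in 8 of these 8, a GATA run in 6, CCAAT in 6 and ATATAA in 5. Among all 32851 promoter windows of that length, CACCC was found in 57.5%, a GATA run in 29.8%, CCAAT in 37.4% and ATATAA in 9.82%. In the Hbb-y window the CACCC run began 111 bases and the CCAAT run 83 bases before the start. In the Hbb-bs window they began 90 and 76 bases before it, and ATATAA 30 bases before it. The window of Hba-a2 matched that of Hba-a1 in 297 of 297 bases after a shift of 3 bases. These matches describe letters in the windows and not bound sites.

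Both alpha genes of the definitive type, and both beta genes of that type, are near copies of each other, which limits what their single values mean. The open reading frames of Hba-a1 and Hba-a2 were the same in 428 of 429 bases, and those of Hbb-bs and Hbb-bt in 443 of 444. Of the 100-base windows in its annotated transcripts, Hba-a1 shared 63.3% with Hba-a2, Hba-a2 shared 79.5% with Hba-a1, Hbb-bs shared 49.7% with Hbb-bt and Hbb-bt shared 54.8% with Hbb-bs. The embryonic genes, Alas2 and Tfrc shared 0 such windows with any other annotated gene, but 15.5% of the exon bases of Alas2 also lie in exons of Apex2 or Mir3620, and without strand the reads there cannot be assigned to one gene. Hbb-y and Hbb-bs matched in 74.3% of aligned coding bases, Hbb-y and Hbb-bh1 in 76.4%, and Hba-x and Hba-a1 in 64.1%. How reads that fit several genes were counted is not given in the sources used here, so the sums of each near-identical pair are given beside the single genes.

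Kdm1a itself, the targeted gene, stood at 10.7, 11.8 and 11.0 FPKM in the knockout libraries, against 29.99, 29.7 and 22.8 FPKM in the control libraries (log2 change -1.22, SE 0.11, limma adjusted p = 0.00274). FPKM, as deposited, are fragments scaled to gene length and library size. Whole reads recovered from the steps of these values summed to between 17898947 and 20076028 per library. At its lowest library each of the 9 genes had at least 680 reads, so that counting error was 3.83% or less. Knockout replicate 3 stood apart in sex-linked RNA, with 12.1 FPKM of Xist and 0 of Ddx3y, while the other 5 libraries had 13.0 to 14.3 FPKM of Ddx3y. Knockout replicate 1 had 1.11 FPKM of Xist beside 14.3 FPKM of Ddx3y, and the remaining 4 libraries had 0.0125 FPKM of Xist or less. Control replicate 3 had the largest mitochondrially encoded share, 9.03% of summed FPKM, against 4.64% to 7.10% in the other 5. None of the 9 genes passed the test with all libraries, without knockout replicate 3 or without control replicate 3.

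Blood RNA was plentiful in all 6 libraries, and its amount varied by about as much within each genotype as over the whole study. The 7 globins together took 3.85%, 2.15% and 4.31% of summed FPKM in knockout libraries, against 1.98%, 2.74% and 4.32% in control libraries. The means were 3.44% ± 1.14 in knockout and 3.01% ± 1.19 in control ventricles (SD, n = 3 each). The groups overlapped over almost the whole range: the lowest share was in control replicate 1 and the highest in control replicate 3, with knockout replicate 3 next to it. In recovered reads, which are not divided by gene length, the globins took 1.03%, 0.548% and 1.15% in knockout libraries and 0.522%, 0.716% and 1.20% in control libraries. In bulk RNA, fewer red cells and less globin RNA per red cell cannot be told apart.

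**Figure D1:**
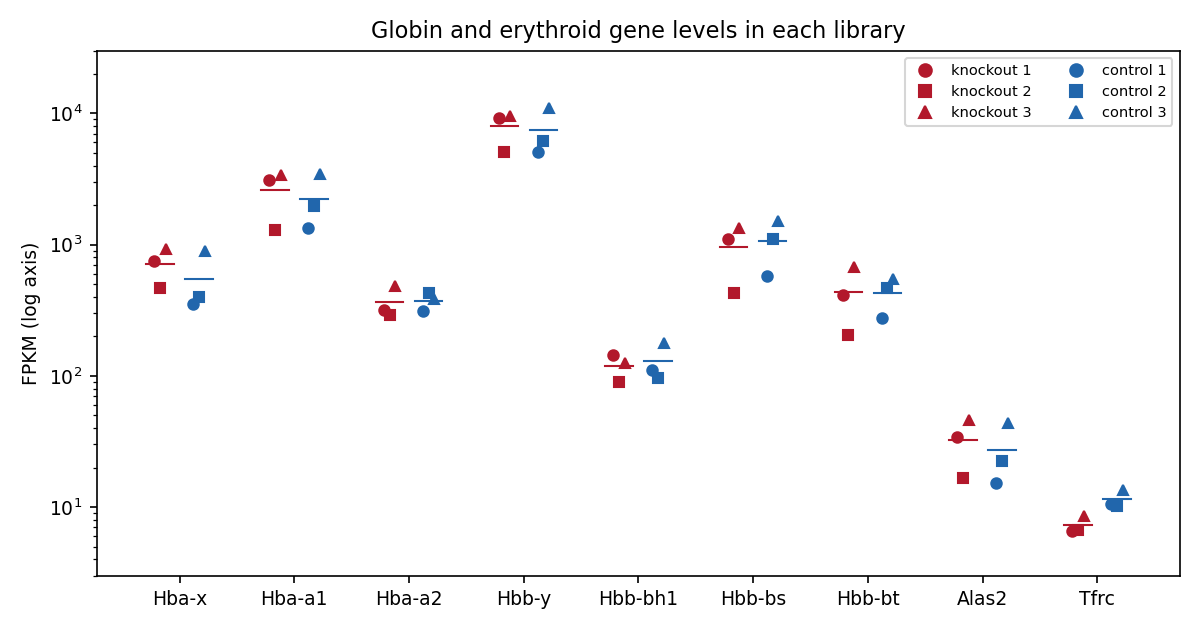
FPKM of the 9 genes in each library on a log axis, knockout (red) left of control (blue), with the replicate number given by the symbol and the group mean by a line. The groups overlap for the 7 globins and Alas2, while the 3 Tfrc values of the knockout, 6.53 to 8.61 FPKM, lie below the 3 of the control, 10.3 to 13.5 FPKM.

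The embryonic beta-type gene Hbb-y was the most abundant globin RNA per length in every library. Its position in mm10 is chromosome 7, 103851749 to 103853216, minus strand. Its level was 9259, 5111 and 9545 FPKM in knockout libraries, against 5063, 6193 and 11024 FPKM in control libraries. Control replicate 3 was the highest and control replicate 1 the lowest, so the knockout values lay within the control range. The log2 change was 0.13 (SE 0.34, limma adjusted p = 0.894), with a 95% interval from a 0.629-fold to a 1.90-fold level in the knockout.

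Hbb-bh1, the other embryonic beta-type gene (chromosome 7, 103841637 to 103843164, minus strand), was far less abundant. It stood at 145, 89.8 and 125 FPKM in knockout libraries, against 111, 96.8 and 178 FPKM in control libraries, again with overlapping groups (log2 change -0.08, SE 0.25, limma adjusted p = 0.910). Hbb-y exceeded Hbb-bh1 by 63.9, 56.9 and 76.6 times in knockout libraries, and by 45.5, 64.0 and 61.9 times in control libraries. This ratio, too, overlapped between the groups.

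Hba-x encodes the embryonic alpha-type (zeta) chain and lies at the head of the alpha cluster, on chromosome 11 from 32276400 to 32278116 on the plus strand. Its level was 744, 465 and 920 FPKM in knockout libraries, against 354, 400 and 891 FPKM in control libraries. Both low controls lay below the 3 knockout libraries, but control replicate 3 lay above 2 of them. The ratio of means was 1.29, the widest from 1 among the globins, and the log2 change was 0.44 (SE 0.37, limma adjusted p = 0.611). Its 95% interval ran from a 0.745-fold to a 2.48-fold level.

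The definitive alpha genes Hba-a1 (chromosome 11, 32283511 to 32284465, plus strand) and Hba-a2 (32296489 to 32297298) were unequal in level. Hba-a1 stood at 3085, 1303 and 3373 FPKM in knockout libraries, against 1337, 1964 and 3431 FPKM in control libraries. Hba-a2 stood at 319, 290.3 and 480 FPKM in knockout libraries, against 312, 427 and 385 FPKM in control libraries. The ratio of Hba-a1 to Hba-a2 ranged from 4.49 to 9.67 in knockout libraries and from 4.28 to 8.92 in control libraries, a split that is uncertain for genes so alike. Their sum was 3405, 1593 and 3854 FPKM in knockout libraries, against 1650, 2391 and 3815 FPKM in control libraries, and the groups overlapped. The log2 changes were 0.20 (SE 0.43, limma adjusted p = 0.870) for Hba-a1 and -0.07 (SE 0.20, limma adjusted p = 0.906) for Hba-a2.

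The definitive beta genes Hbb-bs (chromosome 7, 103826534 to 103828096, minus strand) and Hbb-bt (103812524 to 103813996) varied most among the globins. Hbb-bs stood at 1110, 428 and 1341 FPKM in knockout libraries, against 573, 1097 and 1500.1 FPKM in control libraries, a 3.50-fold span. Hbb-bt stood at 414, 206 and 680 FPKM in knockout libraries, against 274, 463 and 548 FPKM in control libraries, a 3.30-fold span. Knockout replicate 2 was the lowest library for both. Their sum was 1524, 634 and 2022 FPKM in knockout libraries, against 847, 1560 and 2048 FPKM in control libraries. The log2 changes were -0.19 (SE 0.48, limma adjusted p = 0.889) for Hbb-bs and -0.09 (SE 0.43, limma adjusted p = 0.944) for Hbb-bt. The intervals reached from a 0.407-fold to a 1.89-fold level for Hbb-bs and from a 0.475-fold to a 1.87-fold level for Hbb-bt, and neither interval leaves out a 2-fold lower level.

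**Figure D2:**
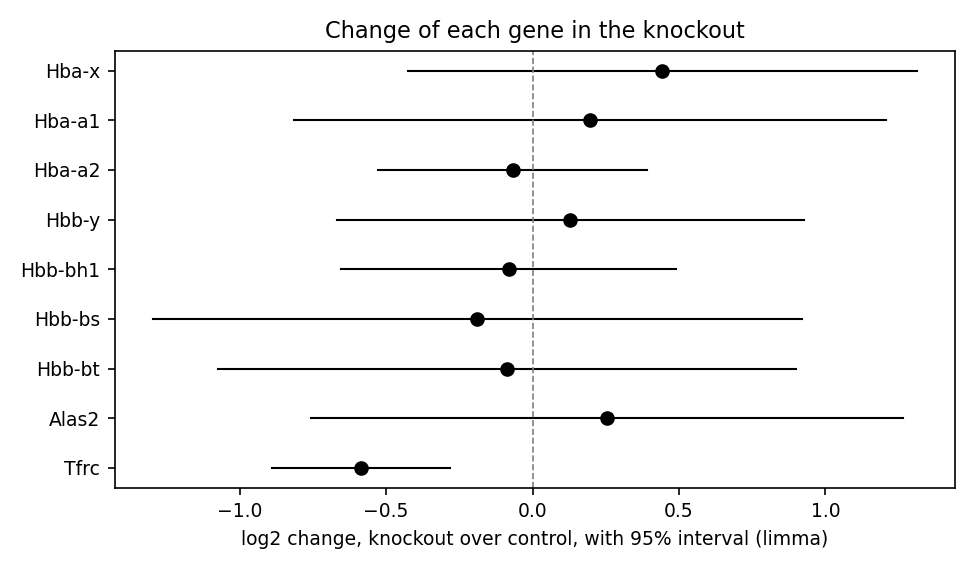
Log2 change of each gene, knockout over control, on log2(FPKM + 1), with its 95% interval from limma over 3 knockout and 3 control libraries. The intervals of the 7 globins and Alas2 include 0, and that of Tfrc, from -0.89 to -0.28, does not, before adjustment over 14149 genes.

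None of the 9 genes was called by limma at an adjusted p under 0.05, where 2.37% of the 14149 genes tested were (1.91% higher, 0.466% lower). At an unadjusted p under 0.05 there was 1 of the 9, Tfrc, and 2274 of all genes tested. The median log2 change was -0.07 over the 9 genes and -0.01 over all genes tested. No direction is given for 6 of the 7 globins or for Alas2, because the sign of the fitted change was not the same in all 15 alternatives. It was below 0 in 3 of the 15 for Hba-a1, 9 for Hba-a2, 4 for Hbb-y, 11 for Hbb-bh1, 13 for Hbb-bs, 12 for Hbb-bt and 3 for Alas2. For Hba-x it was below 0 in 0 of 15, with log2 changes between 0.08 and 0.86, and it was called in none of them. Leaving out control replicate 1 turned Hbb-y to -0.11, and leaving out knockout replicate 2 turned Hbb-bs to 0.31. Rescaling to equal sums without globins and mitochondrial genes turned Hba-a2, TPM turned Hba-a2 and Hbb-bh1, and quantile normalization turned those and Hbb-bt, each by a change of sign near 0. The median log2 change of all genes was 0.06 with TPM and 0.04 with those equal sums, against -0.01 with the FPKM as deposited.

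RNA of the embryonic genes made up most of the globin FPKM in both genotypes, mainly through Hbb-y. Summed over Hba-x, Hbb-y and Hbb-bh1, it was 67.3%, 71.8% and 64.3% of the globin FPKM in knockout libraries, against 68.9%, 62.9% and 67.3% in control libraries. Within the alpha cluster, Hba-x stood below the sum of Hba-a1 and Hba-a2 in every library. The ratio of embryonic to definitive FPKM was 2.06, 2.54 and 1.80 in knockout libraries, against 2.21, 1.69 and 2.06 in control libraries. It averaged 2.14 ± 0.376 in knockout and 1.99 ± 0.268 in control ventricles (SD, n = 3 each), a difference smaller than either SD. Without knockout replicate 2 the log2 ratio of these means was -0.04 and without control replicate 2 it was -0.0022, against 0.10 with all libraries, so its sign rests on single libraries.

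Each cluster taken alone also gave overlapping groups. In the alpha cluster, Hba-x was 0.218, 0.292 and 0.239 of the sum of Hba-a1 and Hba-a2 in knockout libraries, against 0.215, 0.167 and 0.234 in control libraries. In the beta cluster, Hbb-y and Hbb-bh1 were 6.17, 8.20 and 4.78 times the sum of Hbb-bs and Hbb-bt in knockout libraries, against 6.11, 4.03 and 5.47 times in control libraries. Knockout replicate 2 had the highest and control replicate 2 the lowest ratio in both clusters, and the remaining 4 libraries lay between them. The cluster means were 0.250 ± 0.0378 and 0.205 ± 0.0343 for alpha, and 6.39 ± 1.72 and 5.20 ± 1.06 for beta, in knockout and control ventricles (SD, n = 3 each). No p is given for these ratios, since they are scores over the chosen genes.

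**Figure D3:**
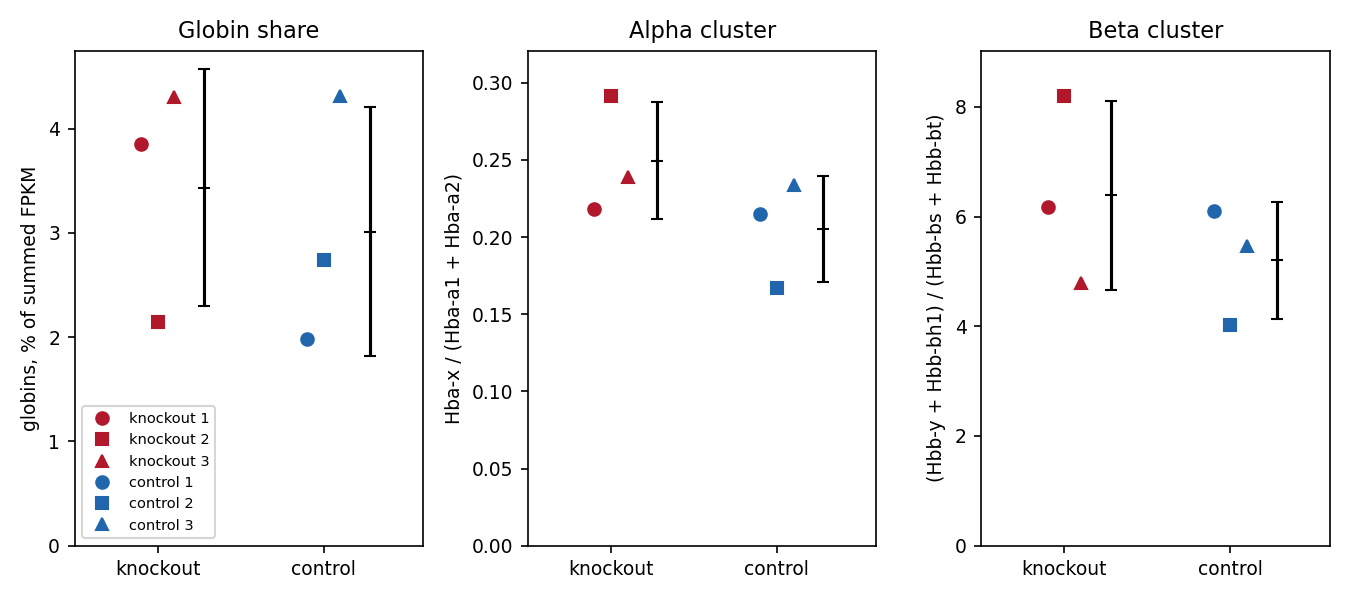
Globin share of summed FPKM (left) and the embryonic to definitive ratio of the alpha (middle) and beta cluster (right) in each library, knockout left of control, with black bars for mean and SD (n = 3). The groups overlap in all 3 panels, and knockout replicate 2 is the highest point in both ratio panels, at 0.292 and 8.20.

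The balance of beta-type to alpha-type RNA overlapped between the groups as well. Beta-type FPKM exceeded alpha-type FPKM by 2.63, 2.84 and 2.45 times in knockout libraries, and by 3.005, 2.81 and 2.82 times in control libraries. Among the embryonic chains, Hbb-y exceeded Hba-x by 12.4, 11.0 and 10.4 times in knockout libraries, and by 14.3, 15.5 and 12.4 times in control libraries, and only knockout replicate 1 and control replicate 3 overlapped, at 12.45 and 12.37. Hba-x was 4.93%, 5.89% and 5.59% of globin FPKM in knockout libraries, against 4.41%, 3.76% and 4.96% in control libraries, with the overlap again between those 2 libraries. Ratios between genes depend on the exon length used by the annotation: in recovered reads, the embryonic to definitive ratio averaged 1.80 ± 0.324 in knockout and 1.68 ± 0.226 in control ventricles (SD, n = 3 each).

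**Figure D4:**
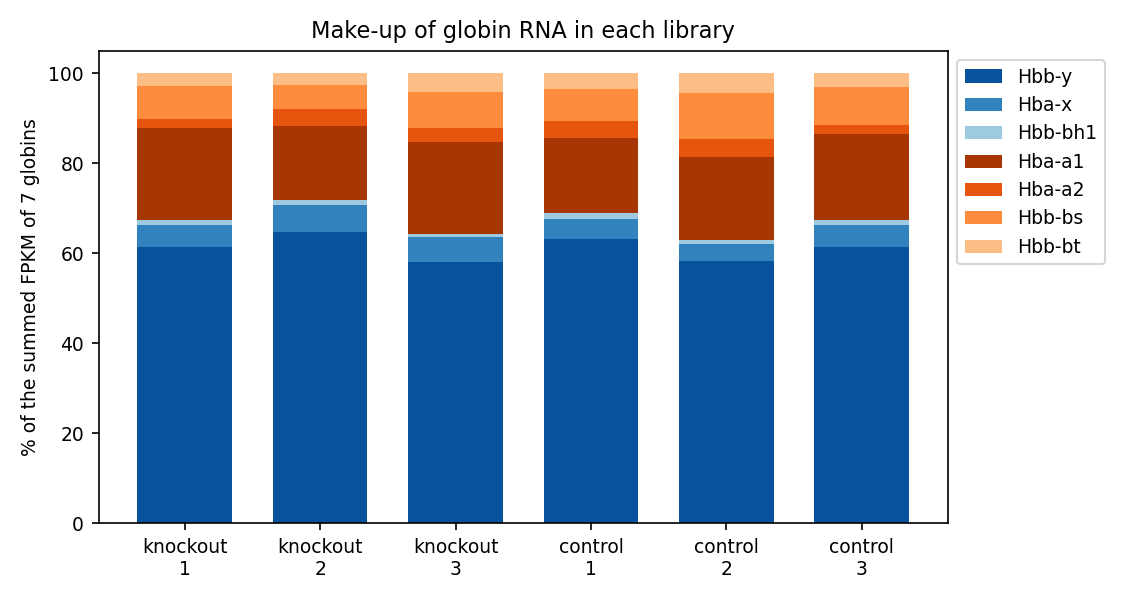
Share of each globin in the summed FPKM of the 7 globins, by library, with embryonic genes in blue and definitive genes in orange. Hbb-y makes up 58.0% to 64.8% in knockout and 58.2% to 63.1% in control libraries, and Hba-a1 is next in each library.

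Alas2, the X-linked gene of the first haem synthesis enzyme in red cells (chromosome X, 150547375 to 150570638, plus strand), followed the globins from library to library. It stood at 34.2, 16.6 and 46.2 FPKM in knockout libraries, against 15.3, 22.5 and 43.9 FPKM in control libraries, and the groups overlapped (log2 change 0.25, SE 0.44, limma adjusted p = 0.829). Per 1000 FPKM of globin there were 2.27, 2.11 and 2.80 FPKM of Alas2 in knockout libraries, against 1.91, 2.12 and 2.44 in control libraries. As a description over 6 libraries, Pearson's r of log2 levels was 0.99 between Alas2 and Hba-a1 and 0.98 between Alas2 and Hbb-y. Knockout replicates 1 and 3 and control replicate 3 were the 3 highest libraries for 6 of the 9 genes, Hba-x, Hba-a1, Hbb-y, Hbb-bh1, Hbb-bs and Alas2. Globin RNA and Alas2 share their libraries' depth and scaling, so these values are not independent.

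Tfrc behaved otherwise. The gene encodes the transferrin receptor, which takes up iron-loaded transferrin into red cell precursors and into dividing cells of most tissues, and it lies on chromosome 16 from 32608920 to 32632794 on the plus strand. Its level was 6.53, 6.71 and 8.61 FPKM in knockout libraries, against 10.5, 10.3 and 13.5 FPKM in control libraries. The 3 knockout values lay below the 3 control values, with group means of 7.28 ± 1.15 and 11.4 ± 1.83 FPKM (SD, n = 3 each). The log2 change was -0.59 (SE 0.13), with a 95% interval from a 0.540-fold to a 0.822-fold level, and the limma adjusted p of 0.0728 missed the threshold of 0.05. Groups that do not overlap with the knockout lower were found for 10.4% of all genes tested, and non-overlapping groups in either direction for 21.4%. Tfrc was called lower in 2 of the 15 alternatives. One had the mean level of red cell membrane genes as a covariate (log2 change -0.70, limma adjusted p = 0.0150). The other had a block for replicate number (log2 change -0.59, limma adjusted p = 0.0196). The covariate includes the genes Rhd and Gypc, both higher in the knockout without overlap. Over the 15 alternatives the limma adjusted p of Tfrc lay between 0.0150 and 0.216. Pearson's r with Alas2 over the 6 libraries was 0.20, against 0.65 to 0.99 between Alas2 and the globins.

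Other red cell genes were read from lists of the pathway. Of 18 genes of the red cell membrane and surface, 16 were tested and 0 were called in either direction, with a median log2 change of 0.07. Slc4a1, which encodes the anion exchanger of the red cell membrane, stood at 16.6, 9.83 and 22.3 FPKM in knockout libraries, against 9.62, 9.62 and 19.7 FPKM in control libraries. Its 3 highest libraries were those of Alas2 and of the globins other than Hba-a2 and Hbb-bt. Rhd, an Rh antigen gene, stood at 3.89, 3.10 and 4.39 FPKM in knockout libraries, against 2.31, 2.04 and 2.63 FPKM in control libraries, without overlap (log2 change 0.52, SE 0.12, limma adjusted p = 0.0797). Gypc, which encodes glycophorin C and is also expressed outside red cells, stood at 24.7, 24.0 and 24.5 FPKM in knockout libraries, against 20.2, 20.8 and 18.8 FPKM in control libraries (log2 change 0.28, SE 0.06, limma adjusted p = 0.0727). Rhd was called higher after rescaling to TPM (limma adjusted p = 0.0321) or to equal sums without globins and mitochondrial genes (0.0492). It was also called higher with a block for replicate number (limma adjusted p = 0.0436). Gypc was called higher after quantile normalization (limma adjusted p = 0.0350) or with those equal sums (0.0319). Non-overlapping groups with the knockout higher were found for 11.0% of all genes tested, and for 2 of these 16.

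Haem and iron genes other than Alas2 and Tfrc were read in the same way. Of 8 haem synthesis genes 0 were called, with a median log2 change of -0.05. The groups did not overlap for 2 of the 8 with the knockout higher and for 2 with it lower. Over all genes tested these shares were 11.0% and 10.4%. Urod, uroporphyrinogen decarboxylase, stood at 22.8, 22.6 and 24.9 FPKM in knockout libraries, against 27.1, 28.6 and 30.3 FPKM in control libraries, without overlap (log2 change -0.28, SE 0.07, limma adjusted p = 0.103). Of 17 genes of iron uptake and handling, 16 were tested and 0 called, with a median log2 change of 0.02. For 2 of these 16 the groups did not overlap with the knockout higher, and for 1 with it lower. Hfe, which encodes a protein that binds the transferrin receptor, stood at 4.38, 5.06 and 4.98 FPKM in knockout libraries, against 3.44, 3.10 and 3.60 FPKM in control libraries, without overlap and just short of a call (log2 change 0.41, SE 0.08, limma adjusted p = 0.0521). It was called higher when the libraries were rescaled to TPM (adjusted p = 0.0327), to equal sums without globins and mitochondrial genes (0.0311), or given weights (0.0317). Aco1, an iron regulatory protein that binds Tfrc RNA, averaged 13.3 ± 0.564 FPKM in knockout and 15.0 ± 0.826 FPKM in control ventricles (SD, n = 3 each).

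Of 20 transcription factors and other regulators of red cells and of globin switching, 17 passed the filter on low values. None of the 17 was called, and their median log2 change was 0.04. Klf1, the activator of adult beta globin, stood at 1.27, 0.876 and 0.732 FPKM in knockout libraries, against 0.673, 0.514 and 0.474 FPKM in control libraries (log2 change 0.33, SE 0.13, limma adjusted p = 0.274). Bcl11a, a repressor of embryonic and fetal globin genes, stood at 1.12, 1.01 and 1.17 FPKM in knockout libraries, against 1.39, 1.62 and 1.36 FPKM in control libraries (log2 change -0.23, SE 0.09, limma adjusted p = 0.278). Both sets were without overlap, in opposite directions. Of the 17 genes, 2 had non-overlapping groups with the knockout higher and 2 with it lower. Over all genes tested these shares were 11.0% and 10.4%. Klf1 had only 35, 26 and 20 recovered reads in knockout libraries, against 19, 14 and 14 in control libraries. Of 22 red cell enzymes and other erythroid genes 15 were tested and 0 called (median log2 change -0.04). The groups did not overlap for 1 of the 15 with the knockout higher and for 3 with it lower, against those same shares. At an unadjusted p under 0.05 (limma) there were 5 of the 15, and 2274 of all 14149 genes tested. The smallest limma adjusted p of this list, 0.0797, was that of Rhd, which is also counted among the red cell membrane genes. Bnip3l, a mitochondrial clearance gene of maturing red cells that the heart also expresses, averaged 50.7 ± 4.11 FPKM in knockout and 63.2 ± 2.32 FPKM in control ventricles, without overlap (SD, n = 3 each, limma adjusted p = 0.0930).

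The beta cluster pseudogene Hbb-bh0, which lies next to Hbb-y, stood at 23.2, 9.99 and 27.3 FPKM in knockout libraries, against 13.4, 10.9 and 29.3 FPKM in control libraries, and Hbq1b, the theta globin gene of the alpha cluster, at 2.06, 2.20 and 2.55 FPKM, against 1.12, 1.16 and 2.50 FPKM. Neither was called (limma adjusted p = 0.882 and 0.389). Hbq1b was called higher in 1 of 14 alternatives, without control replicate 3, its highest control (limma adjusted p = 0.0367). It had only 27, 31 and 33 recovered reads in knockout libraries, against 15, 15 and 35 in control libraries. Genes of haemoglobin clearance had 0 of 6 called (median log2 change 0.06). The groups did not overlap for 1 of the 6, with the knockout higher, against 11.0% of all genes tested. Among them Hmox1, haem oxygenase, averaged 27.4 ± 1.47 FPKM in knockout and 22.1 ± 1.55 FPKM in control ventricles, without overlap (SD, n = 3 each, limma adjusted p = 0.104), and Blvra, biliverdin reductase A, averaged 12.6 ± 0.736 and 11.6 ± 1.55 FPKM.

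Markers of other cells tended to rise or to fall with the globin level from library to library, depending on the cell type. As a description over the 6 libraries, the median Pearson's r of a gene's log2 level with that of summed globin was 0.74 over the 16 red cell membrane genes, 0.49 over 10 endothelial markers, 0.39 over 12 macrophage markers, -0.58 over 10 cardiomyocyte markers and -0.86 over 11 megakaryocyte and platelet markers, against -0.02 over all genes tested. It was above 0 for 15 of the 16 red cell membrane genes, 10 of 10 endothelial, 0 of 10 cardiomyocyte and 1 of 11 megakaryocyte markers. Summed over the 13 listed megakaryocyte and platelet genes the level was 122, 151 and 108 FPKM in knockout libraries, against 159, 181 and 112 FPKM in control libraries. The platelet factor gene Ppbp stood at 1.79, 3.85 and 1.29 FPKM in knockout libraries, against 6.35, 13.7 and 1.34 FPKM in control libraries (limma adjusted p = 0.460), and the platelet receptor gene Clec1b at 0.672, 1.35 and 0.966 FPKM, against 1.76, 2.80 and 0.802 FPKM (limma adjusted p = 0.463). Control replicate 3 was the library with low values among the controls for both genes. The part of these cells in the globin values was not tested.

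**Figure D5:**
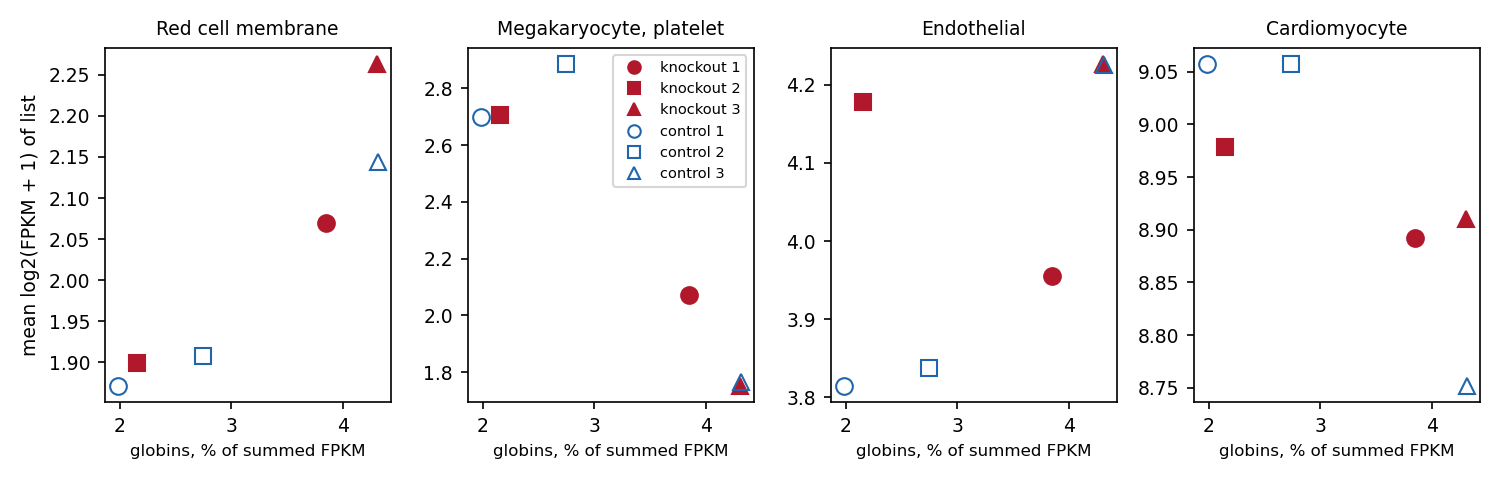
Mean log2(FPKM + 1) of 4 marker lists against the globin share of summed FPKM, 1 point per library, with filled red symbols for knockout and open blue symbols for control. The red cell list is at 1.87 to 1.91 in the 3 libraries lowest in globin and at 2.07 to 2.26 in the others, while the megakaryocyte and platelet list is at 2.70 to 2.89 and 1.75 to 2.07.

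With the FPKM as deposited no marker of the other cell types was called between the genotypes, with 0 of 11 megakaryocyte, 0 of 12 macrophage, 0 of 10 endothelial, 0 of 10 cardiomyocyte and 0 of 2 tested liver markers. C1qc and C1qa, complement genes of macrophages, averaged 19.1 ± 0.708 and 30.4 ± 2.42 FPKM in knockout, against 15.9 ± 0.217 and 24.8 ± 0.824 FPKM in control ventricles (SD, n = 3 each). Both were called higher with equal sums without globins and mitochondrial genes (limma adjusted p = 0.0409 for C1qc and 0.0419 for C1qa), and C1qa with TPM (0.0341). The groups did not overlap, with the knockout higher, for 4 of the 12 macrophage markers, C1qa, C1qb, C1qc and Fcer1g, against 11.0% of all genes tested; C1qb and Fcer1g are named after their values were seen. The part of macrophages in the globin and Tfrc values was not tested. The endothelial genes Emcn and Tek averaged 14.5 ± 0.397 and 33.8 ± 3.60 FPKM in knockout, against 12.1 ± 1.88 and 27.8 ± 6.51 FPKM in control ventricles, and Emcn was called higher without control replicate 3 (limma adjusted p = 0.0367). The cardiac troponin gene Tnnt2 averaged 396 ± 16.2 FPKM in knockout and 427 ± 30.7 FPKM in control ventricles, and the slow troponin gene Tnni1 558 ± 36.0 and 627 ± 50.4 FPKM. Of 9 listed markers of the liver, where definitive red cells form in the fetus, 2 passed the filter on low values. Among the rest, Alb reached at most 0.198 FPKM, Afp at most 0.765 FPKM, and Fgb and Serpina1a were listed at 0 in all 6. Those named among the rest were picked after their values were seen. The liver list's tested genes, Apoa2 and Ttr, averaged 3.91 ± 0.998 and 1.07 ± 0.113 FPKM in knockout and 3.25 ± 1.25 and 0.876 ± 0.294 FPKM in control ventricles (SD, n = 3 each).

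Genes whose pattern over the 6 libraries was most like the globins were ranked among 6930 protein-coding genes outside the 9 that averaged 5 FPKM or more, by Pearson's r of log2 levels. With summed definitive globins these were Neo1 (r = 0.99), Bpgm (0.99), Gimap6 (0.98), Rab11a (0.97) and Rps27rt (0.97). With summed embryonic globins they were Vash1 (0.99), B230118H07Rik (0.99), Laptm4a (0.97), Bpgm again (0.97) and Ecscr (0.97). Bpgm, the red cell enzyme that makes the haemoglobin effector bisphosphoglycerate, was in both sets, and it stood at 17.2, 10.8 and 19.7 FPKM in knockout libraries, against 11.6, 14.0 and 19.4 FPKM in control libraries. A high r over 6 libraries, taken from so many genes, is a description only.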

How the data were processed

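RNA sequencing was done on 3 knockout and 3 control samples of E12.5 heart ventricles. TRIzol extraction and the NEBNext Ultra RNA kit are per the labels' protocols, and that kit is not a directional one. Tools and build named in the submitters' processing notes are HISAT2 2.0.5, featureCounts 1.5.0-p3, fastp, CASAVA and mm10. No source used here gives options or annotation. FPKM values, 1 table for all samples, are what the authors deposited.

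Symbols, exon lengths and coordinates came from GENCODE M21 (GRCm38, as mm10), which held 54495 of 54532 IDs. Whole reads were recovered by dividing FPKM times exon length by the value of 1 read. Of genes with fewer than 30 reads, 98.1% to 98.5% came within 0.02 of an integer. These reads served for depth and shares only. The 14149 genes averaging 0.5 FPKM or more were tested on log2(FPKM + 1), which understates changes of low genes, with limma 3.58.1 in R 4.3.3 (mean-variance trend, two-sided, Benjamini-Hochberg over all genes, adjusted p under 0.05), after a check on simulated data. In that check the spread beyond counting was set below that of the 9 genes within each genotype. It does not show how well changes of these 9 would be found. Intervals are limma's at 95%. Errors from read counts cover counting only. Ratios have no test.

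The 9 genes and the lists were chosen with earlier results of these data known. Of each list the called genes, up to 4, were to be named, or else the 2 with the smallest p; 1 of these genes is not reported here. Slc4a1, Alb, Afp, Fgb and Serpina1a were named after their values were seen. Ahsp was not matched. Recovered reads differed between any 2 libraries by a median chi-square of 1.73 or more per gene, so no 2 were taken as copies of 1 library. This does not show that they are separate animals. Sequences came from RefSeq and GENCODE, read with Python 3.11.15 and Biopython 1.88. Alternatives were another pseudocount, filters, scalings, library weights, covariates, a replicate block and leaving out each library.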

Additional observations from a re-analysis of the deposited data

How the results depend on the processing

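None of the 9 genes was called when any 1 of the 6 libraries was left out. The number called was 1, Tfrc, with a replicate block and with red cell level as covariate, and 0 in the other 7 alternatives. Kdm1a was called lower in all 15. Tfrc's log2 change lay between -0.70 and -0.47 and its limma adjusted p between 0.0150 and 0.216. Correlations of same-numbered deviations were -0.0021, 0.14 and 0.16, and those of unlike-numbered ones lay between -0.19 and 0.08. These values do not settle whether the replicate numbers pair the samples. With the replicate block Tfrc had limma adjusted p = 0.0196, and 220 genes were higher and 64 lower. Over all genes, against 270 higher and 66 lower, the counts were 110 and 12 without the filter, 132 higher at a mean of at least 5 FPKM, 369 and 40 after rescaling to TPM, 395 and 49 with equal sums without globins and mitochondrial genes, and 354 and 112 with library weights; leaving out a library gave 111 to 273 higher and 23 to 108 lower. Of the other listed genes 0 were called, but 3 after TPM, 1 after quantile normalization, 5 with equal sums without globins and mitochondrial genes, 2 with library weights (Hfe and Hmox1), 1 with the replicate block (Rhd, adjusted p = 0.0436), 1 with the red cell covariate (Car2), and 0 to 2 leaving out a library. The log2 ratio of means of the embryonic to definitive ratio (0.10) was -0.04 to 0.21 leaving out a library, and that of the globin share (0.19) was -0.04 to 0.54. With 3 libraries a group, the 95% intervals still held a 2-fold lower level for Hbb-bs and Hbb-bt and a 2-fold higher one for Hba-x, Hba-a1 and Alas2.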
